A study of Danio rerio with 6 samples.

Results

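The 5 skeletal muscle genes described here are myod1 (ENSDARG00000030110), myog (ENSDARG00000009438), desma (ENSDARG00000058656), acta1b (ENSDARG00000055618) and ckma (ENSDARG00000035327). They were chosen by identifier, and all 5 were found among the 27726 genes of the table. The table came from RNA sequencing of zebrafish (Danio rerio) cells sorted by flow cytometry for a red fluorescent sox10:dsRed reporter at 6 days post fertilization. The reporter, which both groups carry, marks cells that use regulatory sequence of sox10, which encodes a neural crest transcription factor that stays on in several crest-derived cell types. One group was 3 wild-type libraries and the other 3 libraries from shoc2 mutants (Shoc2-/-) made with CRISPR/Cas9. Shoc2 is a scaffold protein of RAS-ERK signalling. The comparison asks what differs in these cells when it is lost. How many larvae entered a library is not given in the sources used here, nor is it said whether replicates were separate clutches, so p-values measure only the spread between these libraries.

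Skeletal muscle fibres form from precursors that switch on bHLH transcription factors of the MyoD family, often fuse, and then fill with contractile filaments. Fast fibres rely on parvalbumin, on the sarcoplasmic calcium pump and on creatine kinase for rapid relaxation and energy supply, while slow fibres use their own myosins. Body muscle of the trunk comes from the somites and not from the neural crest, so its transcripts are not among the usual markers of sox10-expressing cells. The 5 genes cover steps of that programme. myod1 and myog encode MyoD family factors, with MyoD acting in commitment and myogenin in terminal differentiation. desma encodes desmin, the intermediate filament around the Z-discs, acta1b encodes a skeletal actin of the thin filament, and ckma encodes muscle creatine kinase.

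Between 20088591 and 21802683 reads per library were assigned to genes. The SHOC2 transcript (ENSDARG00000040853) was at 1194, 959 and 1083 normalized counts in wild type and at 844, 798 and 673 in mutants. The groups did not overlap. The log2 fold change was -0.48 (SE 0.15) and did not pass the threshold in limma (adjusted p = 0.636). SOX10 (ENSDARG00000077467) lay between 8573 and 30211 normalized counts, and crestin between 9.10 and 27.4. None of the 12 neural crest and derivative genes examined was at 0 in all libraries, and neither was any epidermis or leukocyte gene examined. Of the epidermis genes, krt4 lay between 17840 and 68188. With no unsorted library, these values cannot show how far the sort enriched neural crest cells.

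Transcripts of all 5 muscle genes were present in every sorted library, at very different amounts. Together they took 0.00876% of reads in wild-type replicate 1 (exact 95% interval 0.00836 to 0.00916%), 0.0306% in replicate 2 (0.0298 to 0.0313%) and 0.00608% in replicate 3 (0.00574 to 0.00643%). In mutants they took 0.0678% in replicate 1 (0.0667 to 0.0689%), 0.0420% in replicate 2 (0.0411 to 0.0429%) and 0.00919% in replicate 3 (0.00879 to 0.00960%). These intervals cover counting error only. The high libraries were thus wild-type replicate 2 and mutant replicates 1 and 2, and the other 3 were low, so both genotypes held high and low libraries. The highest share was 11.2 times the lowest, and within a genotype the ratio was 5.03 in wild type and 7.38 in mutants. The wild-type mean was 0.0151% ± 0.0134 (SD, n = 3). The mutant mean, 0.0396% ± 0.0294 (SD, n = 3), was 2.62 times as high, with overlapping ranges. That ratio was 5.35 without wild-type replicate 2 and 1.69 without mutant replicate 1. In sorted cells measured in bulk, more muscle cells and more muscle RNA per cell cannot be told apart.

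Among the high libraries, wild-type replicate 2 was the shallowest of the 6, with 20088591 reads. Mutant replicate 1 was the deepest, with 21802683, and mutant replicate 2 had 20152291. The low libraries had 21575563 reads (wild-type replicate 1), 20134815 (wild-type replicate 3) and 21757748 (mutant replicate 3). The part of sequencing depth in the muscle share was not tested. Most reads of the 5 genes were from ckma, between 62.0% and 78.3% in each library, without correction for gene length. acta1b made up between 7.52% and 20.7%. The share of the set therefore mainly follows ckma, and the genes are given one by one below.

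**Figure D1:**
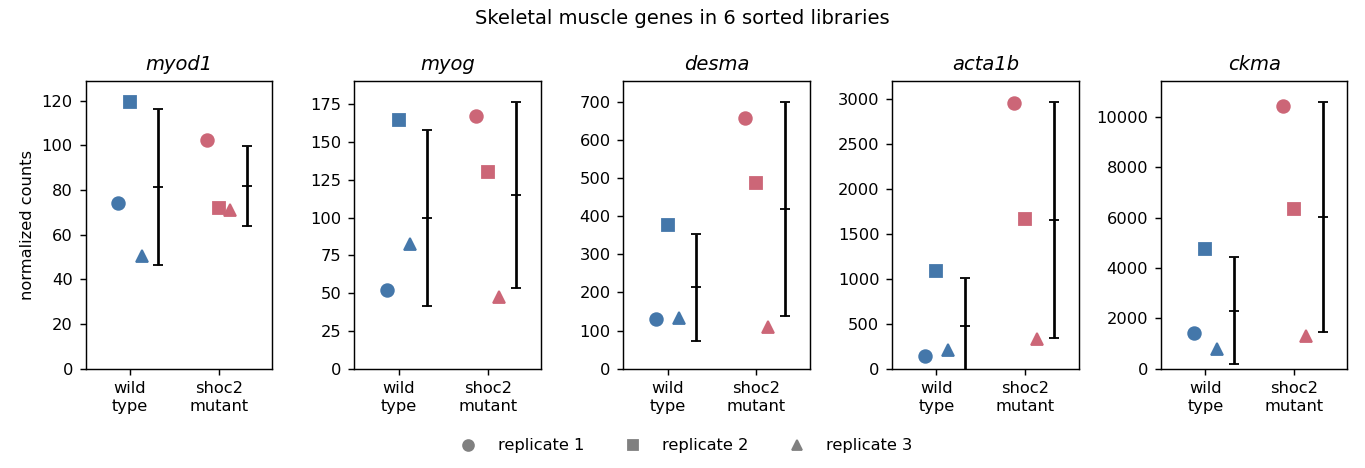
Normalized counts (vertical axis, linear, from 0) of the 5 genes in each library, with wild type in blue and shoc2 mutants in red. Symbols give the replicate number, and black bars give the mean and SD of 3 libraries, cut off at 0 where the SD is larger than the mean. For desma, acta1b and ckma, wild-type replicate 2 and mutant replicates 1 and 2 stand above the other libraries; mutant replicate 3 lies among the wild-type values or close to them.

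The regulatory genes were the least variable. myod1 was at 74.0, 119 and 50.5 normalized counts in wild-type replicates 1, 2 and 3 and at 102, 71.9 and 70.8 in mutant replicates 1, 2 and 3. Its highest library, wild-type replicate 2, was 2.36 times its lowest, wild-type replicate 3, and the 3 mutant values lay inside the wild-type range. The means were 81.3 ± 34.9 (SD, n = 3) and 81.7 ± 18.0 (SD, n = 3). The log2 fold change of mutant over wild type was 0.07 (SE 0.35, 95% interval -0.73 to 0.87), with an adjusted p of 0.993 in limma.

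myog was at 51.9, 165 and 82.9 normalized counts in the wild-type replicates and at 167, 130.4 and 47.5 in the mutant replicates. Its 3 highest libraries, mutant replicate 1, wild-type replicate 2 and mutant replicate 2, were also those with the highest muscle share. The span was 3.52-fold and the groups overlapped almost completely, with a wild-type mean of 99.8 ± 58.3 (SD, n = 3) and a mutant mean of 115 ± 61.3 (SD, n = 3). The difference on the log2 scale was 0.18 (SE 0.53, 95% interval -1.03 to 1.39), with a limma adjusted p of 0.989. Leaving out single libraries turned the sign of both regulators, with values from -0.22 to 0.39 for myod1 and from -0.20 to 0.72 for myog.

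The structural and metabolic genes spread much further. desma was at 131, 376 and 132 normalized counts in wild type and at 658, 487 and 109 in mutants. The highest value was 6.03 times the lowest, and both belonged to mutants, so the wild-type values fell within the mutant range. The means were 213 ± 141 (SD, n = 3) and 418 ± 281 (SD, n = 3), with a log2 fold change of 0.81 (SE 0.65, 95% interval -0.67 to 2.28) and a limma adjusted p of 0.960.

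acta1b had the widest span of the 5, 21.6-fold. It was at 137, 1089 and 204 normalized counts in wild type and at 2955, 1661 and 329 in mutants. Mutant replicate 3 was above wild-type replicates 1 and 3 but below replicate 2, which is where the groups overlapped. The means were 477 ± 532 (SD, n = 3) and 1648 ± 1313 (SD, n = 3). On the log2 scale mutants were 1.91 above wild type (SE 0.89, 95% interval -0.11 to 3.92), and limma gave an unadjusted p of 0.0611 and an adjusted p of 0.874.

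ckma was at 1423, 4733 and 767 normalized counts in wild type and at 10411, 6328 and 1307 in mutants, a 13.6-fold span. Mutant replicate 3 was below wild-type replicate 1 here. The means were 2308 ± 2126 (SD, n = 3) and 6015 ± 4560 (SD, n = 3), and the log2 fold change was 1.35 (SE 0.80, 95% interval -0.46 to 3.17) with a limma adjusted p of 0.939.

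None of the 5 genes passed an adjusted p under 0.05 in limma with Benjamini-Hochberg adjustment over 20463 genes, where 0.00489% of all tested genes did. With all 6 libraries and no replicate block, none had an unadjusted p under 0.05 in limma, against 5.8% of all tested genes. edgeR's quasi-likelihood test on the recovered reads called 0 of the 5 and 0 of all genes. DESeq2 called 0 of the 5, against 0.757% of all tested genes. The groups overlapped for all 5, while they did not overlap for 10.6% of tested genes. The intervals for desma, acta1b and ckma reach from below 0 to 2.28, 3.92 and 3.17 on the log2 scale, so 3 libraries per genotype neither show nor exclude a several-fold difference in these genes. Single libraries moved the estimates: acta1b came to 2.82 without mutant replicate 3 and to 1.24 without mutant replicate 1, with limma adjusted p of 0.718 and 0.894. Without mutant replicate 3, 3 of the 5 genes had an unadjusted p under 0.05 (desma 0.00749, acta1b 0.00613 and ckma 0.00861; limma adjusted p of 0.718 each). Without wild-type replicate 2, 2 of the 5 did (acta1b 0.00683 and ckma 0.0246; limma adjusted p of 0.614 and 0.805). The other 4 fits that leave out a library gave 0, and the adjusted count was 0 in all 6. Among all 20463 tested genes, 634 were higher in mutants at an unadjusted limma p under 0.05 without mutant replicate 3. Without wild-type replicate 2, 609 of all tested genes were.

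**Figure D2:**
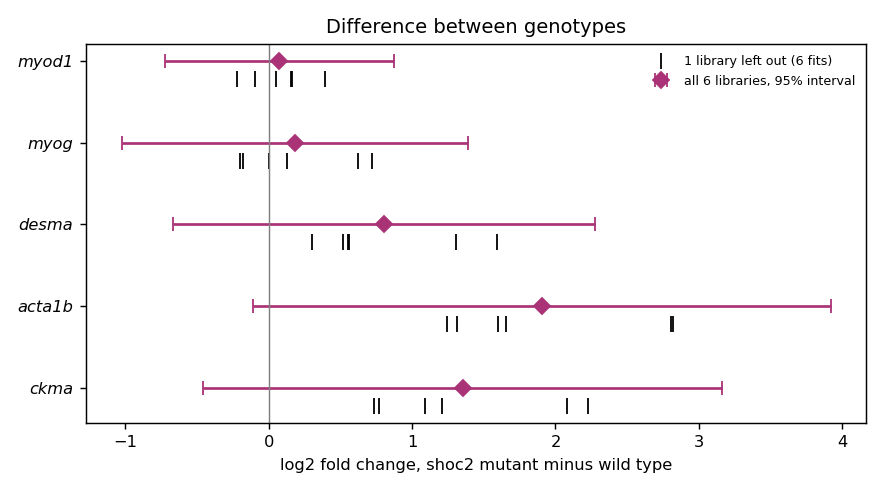
Log2 fold change of shoc2 mutant over wild type (horizontal axis, on log2(normalized count + 1)) for the 5 genes. Diamonds with bars are the limma estimate and 95% interval from all 6 libraries, and black ticks are the 6 estimates with 1 library left out. All 5 intervals include 0, and the ticks of acta1b run from 1.24 to 2.82.

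The difference between libraries of the same genotype set the structural genes apart from most of the transcriptome. The within-genotype SD on the log2 scale was 1.61 for acta1b, 1.45 for ckma, 1.15 for desma, 0.89 for myog and 0.48 for myod1, beside a median of 0.28 over all tested genes. Each was also placed among the 500 tested genes of nearest mean level. acta1b, desma and ckma were above 99.6%, 99.4% and 99.2% of these, myog above 96.8% and myod1 above 70.8%. myod1 was thus the only one of the 5 with a spread not far from genes of similar level, whose median SD was 0.38.

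**Figure D3:**
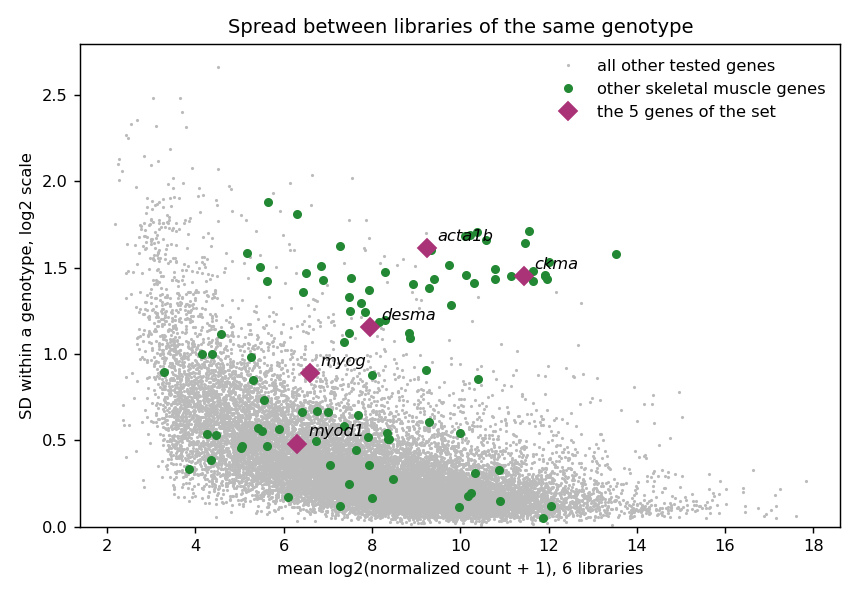
SD between libraries of the same genotype (vertical axis, log2 scale) against mean log2(normalized count + 1) over 6 libraries for 20463 tested genes. Diamonds are the 5 genes, green circles the other skeletal muscle genes and grey points all other genes. acta1b, ckma and desma lie at 1.15 or above, while the median of all genes is 0.28.

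The ratio of structural to regulatory transcripts also differed between libraries. ckma normalized counts per myog normalized count were 27.4, 28.7 and 9.26 in wild type and 62.2, 48.5 and 27.5 in mutants. acta1b per myod1 was 1.84, 9.13 and 4.04 in wild type and 28.8, 23.1 and 4.64 in mutants. Mutant replicates 1 and 2 were highest on both ratios, while mutant replicate 3 lay within the wild-type range. In wild-type replicate 3, myog was above the level of wild-type replicate 1 and mutant replicate 3 although its ckma was the lowest of all libraries. The pair ckma and acta1b was more even, with 4.34 and 3.76 in wild-type replicates 2 and 3 and between 3.52 and 3.97 in the mutants, but 10.4 in wild-type replicate 1, where acta1b was at its lowest.

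Closely related genes were examined because reads of near-identical copies may have been split between them. The reference table gives the symbol ACTA1 to acta1b and to ENSDARG00000036371. The latter was at 209, 837 and 319 normalized counts in wild type and at 1032, 753 and 226 in mutants, a 4.94-fold span against 21.6 for acta1b. ckmb, the second muscle creatine kinase, ran closely with ckma, at 1508, 5978 and 953 in wild type and at 11657, 7534 and 1453 in mutants, and ckma per ckmb stayed between 0.792 and 0.944. The second gene named DES (ENSDARG00000005221), which shares that symbol with desma, did not show the same spread. It lay between 95.2 and 181 normalized counts in all 6 libraries, with wild-type replicate 2 highest and mutant replicate 2, at 109.8, among the low ones. actc1b, an alpha-actin of zebrafish muscle, was at 5349, 22791 and 3401 in wild type and at 46248, 28328 and 4831 in mutants.

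A list of other skeletal muscle genes was then set beside the 5. Its 92 symbols matched 96 identifiers, of which 95 were tested, and 5 symbols were not matched. With the 5 genes, the list took 0.252%, 0.700% and 0.202% of reads in wild-type replicates 1, 2 and 3 and 1.32%, 0.889% and 0.263% in mutant replicates 1, 2 and 3. These are the same high and low libraries as for the 5 genes alone, on a larger number of reads. The span over the 6 libraries was 6.52-fold.

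None of the 95 tested genes passed an adjusted p under 0.05 in limma, and edgeR and DESeq2 also called 0. At an unadjusted p under 0.05 in limma, 7 were higher in mutants, against 2.88% of all tested genes, and 0 were lower, against 2.91%. Estimates were above 0 for 83 of 95, beside 51.5% of all tested genes, and the list's median log2 fold change was 0.84, beside 0.01 over all. That median depended on single libraries: it was 0.43 without mutant replicate 1 and 0.53 without wild-type replicate 3, but 1.34 without wild-type replicate 2 and 1.28 without mutant replicate 3. The smallest adjusted p was 0.642. Values did not overlap for 7 genes, all higher in mutants, where 5.29% of tested genes were higher and 5.28% lower without overlap. Leaving out 1 library changed the unadjusted count most: 57 without mutant replicate 3 and 48 without wild-type replicate 2, but 2 without wild-type replicate 3 and 2 without mutant replicate 2. All of these were higher in mutants. Of all 20463 tested genes, 634, 609, 520 and 368 were higher in mutants at that p, in the same order of fits. The adjusted count was 0 in each of these fits. Many of these genes share the profile of libraries described next, so they are not all separate observations.

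The profile used was the mean of the centred log2 values of desma, acta1b and ckma in the 6 libraries. Pearson's r with it is given as a description, because the libraries fell into a high and a low cluster. Of the listed genes, 81 averaged 50 normalized counts or more, and 55 of these had r of at least 0.9, where 1.98% of 16698 genes of that level did. By role these were 9 of 12 thick filament genes, 12 of 14 thin filament genes, 13 of 17 Z-disc, M-band and cytoskeleton genes, and 20 of 28 calcium and energy genes. Of the regulators 0 of 5 did, and of the fusion and neuromuscular junction genes 1 of 5. That gene was CHRNA1, a subunit of the muscle acetylcholine receptor, with r of 0.99. myog had r of 0.88 and myod1 0.69. With values and profile centred on each genotype's mean, r was 0.96 for myog and 0.75 for myod1.

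**Figure D4:**
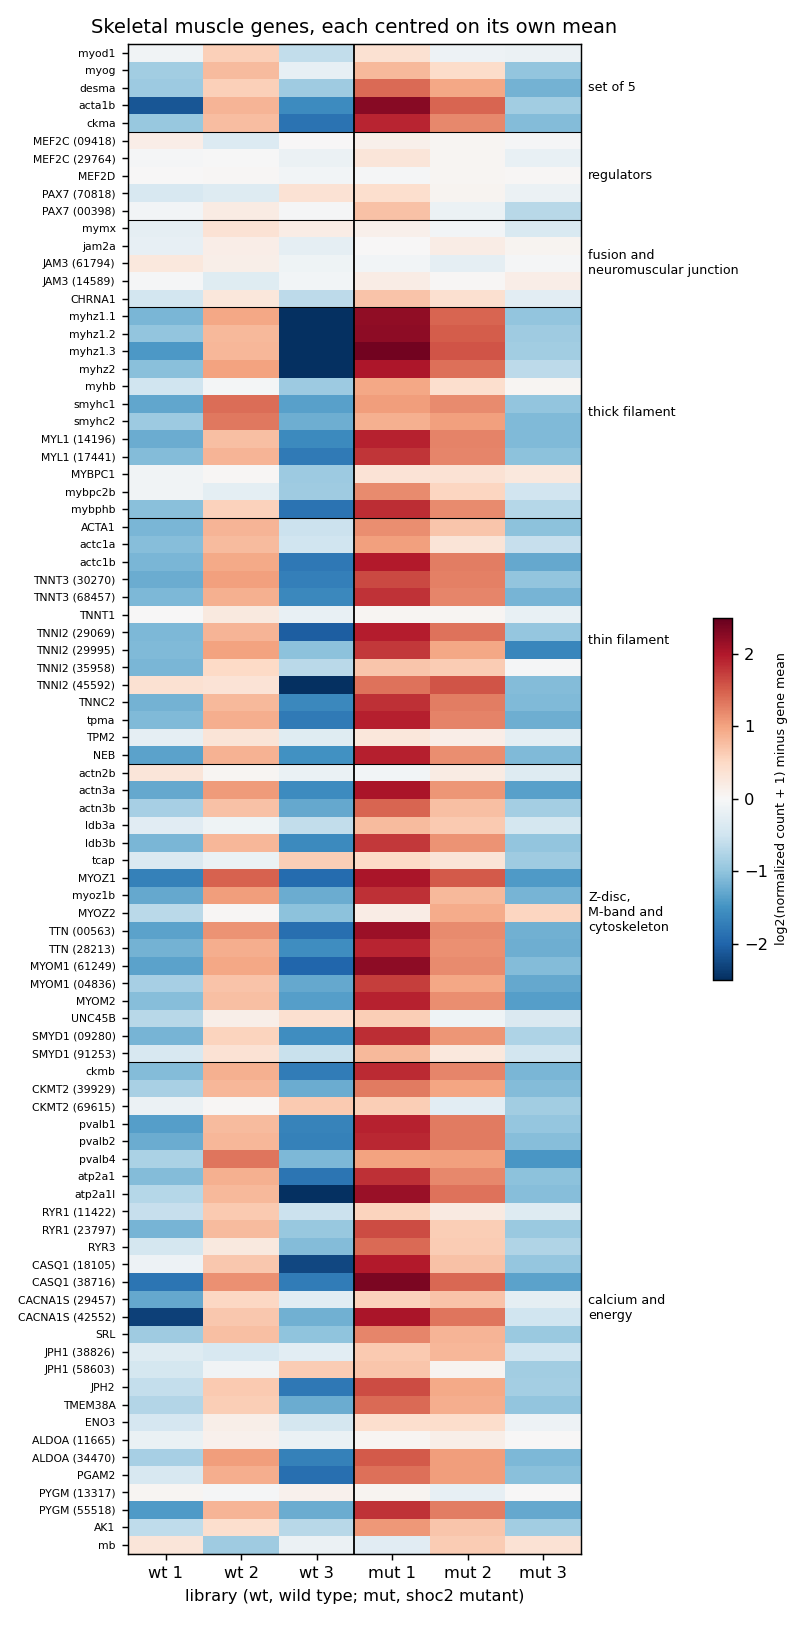
Log2(normalized count + 1) minus the gene's own mean, by library (columns) for the 5 genes and the 81 other muscle genes that averaged 50 normalized counts or more (rows, by role; digits in brackets are the end of the Ensembl identifier where 2 or more genes share a symbol). Red is above and blue below the gene's mean, with colours saturating at 2.5. Most contractile, calcium and energy genes are red in wild-type replicate 2 and mutant replicates 1 and 2, and regulators are pale.

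The contractile genes highest on average followed the high and low libraries. Others varied less, such as TNNT1 (1.35-fold, r of 0.64) and MYBPC1 (2.41-fold, r of 0.65). Among thick filament genes, the fast myosin heavy chain myhz1.1 was at 1367, 5920 and 525 normalized counts in wild type and at 13980, 8210 and 1530 in mutants, a 26.6-fold span. myhz2 and myhz1.3, fast myosins of the same family, spanned 26.5-fold and 30.4-fold. MYL1 (ENSDARG00000017441), an essential myosin light chain, spanned 11.7-fold. Their log2 fold changes lay between 1.32 and 2.08, and none passed the limma threshold.

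Among thin filament genes, tpma (alpha-tropomyosin) spanned 13.0-fold, TNNT3 (ENSDARG00000068457, fast troponin T) 10.8-fold and TNNC2 (fast troponin C) 10.8-fold. actc1b spanned 13.6-fold. NEB encodes nebulin, the giant ruler protein of the thin filament, and was at 440, 2029 and 389 normalized counts in wild type and at 4260, 2481 and 519 in mutants. Among Z-disc and M-band genes, both genes named TTN, for the sarcomeric spring titin, spanned 16.2-fold (ENSDARG00000000563) and 11.0-fold (ENSDARG00000028213). actn3a and actn3b, alpha-actinins of the Z-disc, spanned 12.1-fold and 6.69-fold.

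Among calcium and energy genes, pvalb1, a parvalbumin that buffers calcium in fast fibres, was at 1543, 6933 and 1262 normalized counts in wild type and at 15146, 9806 and 2032 in mutants. pvalb2 spanned 11.9-fold, atp2a1 (the sarcoplasmic calcium pump) 12.6-fold and ckmb 12.2-fold. All were highest in mutant replicate 1 and lowest in wild-type replicate 3. None passed the limma threshold, with adjusted p between 0.910 and 0.951.

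Most regulators and most fusion or junction genes spread less, with a median highest-over-lowest ratio of 1.77 for the 7 regulators and 2.15 for the 9 fusion and junction genes, beside 5.82 over the whole list. MEF2D, a MADS-box partner of MyoD factors, varied 1.09-fold over the 6 libraries. The 2 genes named MEF2C varied 1.43-fold and 1.40-fold. These regulators are also used outside muscle. PAX7 (ENSDARG00000100398), a paired-box gene of muscle stem cells that is also used in the neural crest, varied 2.70-fold. MYF5 and MYF6, the other MyoD family genes, were low, with means over all libraries of 33.0 and 10.3 normalized counts. MYF6 was an exception to the narrow spread, at 5.77, 5.28 and 11.1 in wild type and 17.4, 18.5 and 3.73 in mutants, a 4.96-fold range that rests on few reads. For MYF5 the mutant values were 19.3, 37.0 and 27.0, and the wild-type values 30.8, 53.8 and 30.3. mymx and MYMK, whose products fuse myoblasts, varied 1.68-fold and 2.15-fold. CHRND, the delta subunit of the muscle acetylcholine receptor, was the other exception. It varied 6.23-fold, at 10.6, 58.1 and 22.2 normalized counts in wild type and 42.5, 24.6 and 9.32 in mutants. That range also rests on few reads, 10 to 55 per library. The highest of the other junction and fusion genes, JAM3 (ENSDARG00000061794), varied 1.40-fold, JAM3 (ENSDARG00000114589) 1.40-fold and jam2a 1.33-fold.

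Not every listed structural or metabolic gene followed the profile. Of the 81, 12 had r under 0.5, and 6 of these were from the Z-disc and energy roles: actn2b, tcap, mb, and single copies of CKMT2, JPH1 and PYGM. mb (myoglobin) had r of -0.26 and was highest in mutant replicate 2, at 1578 normalized counts, and lowest in wild-type replicate 2, at 549. The 2 genes named PYGM, muscle glycogen phosphorylase, parted: ENSDARG00000055518 spanned 9.67-fold with r of 0.99, and ENSDARG00000013317 spanned 1.25-fold with r of -0.48.

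Among all genes that averaged 50 normalized counts or more, the 5 most like the profile were MYL11 (ENSDARG00000002589), NEB, MYL1 (ENSDARG00000014196), pvalb1 and CASQ1 (ENSDARG00000038716), with r from 0.9980 to 0.9992 over 6 libraries. In human, MYL11 is the regulatory light chain of fast muscle myosin, and CASQ1 is the calcium store protein calsequestrin. MYL11 was not among the matched genes of the list and was at 188, 851 and 156 normalized counts in wild type and at 2098, 1289 and 231 in mutants. Of the 100 most like genes, 40 were on the list of other muscle genes, which held 81 of the 16698 genes of that level. Among the 100 most like by other measures, 35 were listed with values centred on each genotype and 26 by Spearman correlation. Spearman values over 6 libraries tie for many genes, so the count of 26 depends partly on the order of tied genes.

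Summed markers of other cell types were compared library by library. The neuron list (4 genes, none at 0) was highest in mutant replicates 1 and 2 and wild-type replicate 2 when summed, at 7464, 10078 and 8987 summed normalized counts in wild type and at 12808, 10078 and 7504 in mutants, a span of 1.72-fold. That order held for ELAVL3, and ELAVL4 was also highest in these libraries. Their r with the muscle profile was 0.93 and 0.90, beside 0.65 for SNAP25 (ENSDARG00000020609) and 0.33 for SNAP25 (ENSDARG00000058117). The latter was highest in wild-type replicate 3, at 1843, and at 1209 in mutant replicate 2. The part of the neuron list in the muscle result was not tested. The cardiac list (10 identifiers, none at 0 in all libraries) was low throughout, between 192 and 235 in wild type and between 276 and 460 in mutants. When summed, its highest library was mutant replicate 2 and not mutant replicate 1. Single genes were also highest there, except myh6 (ENSDARG00000090637), highest in mutant replicate 1, and nppa, highest in wild-type replicate 1. MYH6 (ENSDARG00000079564), the only gene of that list averaging 50 normalized counts or more, had r of 0.86 with the muscle profile. MYL7, the atrial light chain that marks zebrafish heart muscle, had between 26.0 and 74.9 normalized counts.

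The remaining lists had other orders. Smooth muscle genes (7 identifiers) spanned 1.32-fold when summed, from 4770 to 6206 in wild type and from 5146 to 6285 in mutants. Single genes spanned more, from 1.49-fold for MYH11 (ENSDARG00000009782) to 3.83-fold for MYH11 (ENSDARG00000100972). CNN1 (ENSDARG00000017193), at 0 in wild-type replicate 3, is left out of that range. In mutant replicate 1, TAGLN (ENSDARG00000033466) was at its lowest and TAGLN (ENSDARG00000045408) at its highest. Neural crest and derivative genes (12), when summed, were lowest in wild-type replicate 2, at 34032, and highest in wild-type replicate 1, at 78219. Most of these sums came from mbpa, at 12621 and 33409 in these 2 libraries, and SOX10, at 8573 and 25782. The mutant sums ran from 43103 to 68743. Single genes split: SOX10, DCT, pmela, plp1b and MITF (ENSDARG00000037833) were lowest in wild-type replicate 2. TFAP2A and crestin were highest there, at 2442 and 27.4, and the others were neither. Cartilage genes (6) ran from 196964 to 289472 in wild type and from 396247 to 528132 in mutants, and were lowest in wild-type replicate 2. Summed epidermis genes (3) were at 39669, 129377 and 100803 in wild-type replicates 1, 2 and 3 and at 33414 to 58176 in mutants. Wild-type replicate 2 was thus highest, and replicate 3, which was low in the muscle genes, was next. That held for krt4 and krt5, but epcam was at 4363 there and highest in wild-type replicate 3, at 8988. Leukocyte genes (6) ran from 1734 to 3068 in wild type and from 1065 to 2473 in mutants, with mutant replicate 1 lowest. No gene of these 7 lists passed the limma threshold.

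**Figure D5:**
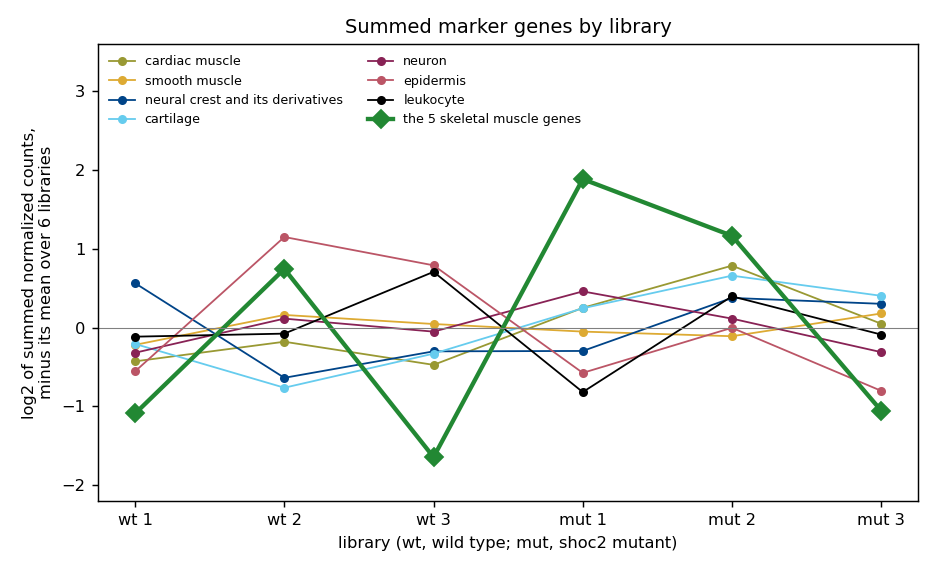
Log2 of summed normalized counts of each marker list, minus that list's mean over the 6 libraries (vertical axis), by library; lines join the points of a list, and libraries have no order. The 5 skeletal muscle genes (thick green line) have the widest span, with wild-type replicate 2 and mutant replicates 1 and 2 above the mean, while the smooth muscle list spans 1.32-fold.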

How the data were processed

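The authors deposited one table of normalized counts, a signal per gene and library, named as HTSeq normalized counts. The submitters' processing notes name FastQC 0.11.7, STAR 2.6, Cuffnorm and the build GRCz11, with no roles. Annotation and strand setting are not given in the sources used here. In each column 100% of values were whole multiples of a step (tolerance 0.01 reads), between 0.932 and 1.06 per read, so reads could be recovered. Depth was 20088591 to 21802683 reads. A reference table named 25324 of 27726 identifiers. Listed symbols with no exact match were matched without their paralog letter, taking every gene so named. One item of the list is not reported here.

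Genes with at least 10 normalized counts in at least 3 of 6 libraries were tested on log2(normalized count + 1), a scale that understates changes of low genes, with limma 3.58.1 in R 4.3.3 (trend, no covariates, Benjamini-Hochberg threshold 0.05). edgeR 4.0.16 and DESeq2 1.42.0 on recovered reads, other pseudocounts, filters and scalings, a replicate block and single libraries left out were alternatives. The scripts were tested on simulated counts. Named were the 5 genes, their close relatives, the 4 highest listed genes of each role (levels not per length) and the 5 most like the profile; others named were chosen after their values were seen. Genes and lists were chosen with earlier results of these data known, so no score over the 5 has a p. Coordinates and sequences were not used here.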

Additional observations from a re-analysis of the deposited data

How the results depend on the processing

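The count of the 5 genes past the threshold was 0 under all 17 alternatives run, and so was the count of other skeletal muscle genes. Estimates for desma, acta1b and ckma stayed above 0 in all 17, from 0.30 to 1.59, from 1.24 to 2.82 and from 0.73 to 2.23. Those of myod1 and myog turned below 0 with single libraries left out: myod1 to -0.22 without wild-type replicate 3 and -0.10 without mutant replicate 1, myog to -0.20 without wild-type replicate 1 and -0.18 without mutant replicate 1. With 1 library left out, myod1 ran up to 0.39 and myog up to 0.72. The cause was not tested. With the replicate number as a block, ckma had an unadjusted p of 0.0135 and acta1b of 0.0237 (limma adjusted p of 0.966 and 1.00), and 39 of the 95 other muscle genes had an unadjusted p under 0.05, beside 7. All 39 were higher in mutants, as were 467 of all 20463 tested genes at that p, beside 590 without the block. Over all tested genes, same-numbered libraries deviated with correlations from -0.202 to -0.0288, and differently numbered ones from -0.229 to 0.311. The main fit was planned without a block, because the labels give no batch. Whether same-numbered libraries were handled together is not given in the sources used here. The mutant over wild-type ratio of the read share was 2.61 without ckma, 2.62 without the 10 highest genes in the denominator, and between 1.69 and 5.35 over the fits that leave out a library. The 55 muscle genes with r of at least 0.9 became 54 (of 607 genes in all) with values centred on each genotype and 43 (of 264) by Spearman correlation. myod1 and myog rested on 50 to 173 reads per library.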

Other observations

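Slow and fast myosin heavy chains were compared after their values were seen, with no test. The slow genes smyhc1 and smyhc2 summed to 633, 3916 and 586 normalized counts in wild-type replicates 1, 2 and 3 and to 3047, 3341 and 743 in mutant replicates 1, 2 and 3. The fast genes myhz1.1, myhz1.2, myhz1.3 and myhz2 summed to 3814, 15981 and 1368 in wild type and to 37971, 22856 and 4676 in mutants. The slow genes were therefore highest in wild-type replicate 2, and the fast genes in mutant replicate 1. The listed gene smyhc3 was not matched and is in neither sum. How reads of similar myosin copies were assigned was not tested. Slow myosin made up 14.2%, 19.7% and 30.0% of the slow and fast sum in wild type and 7.43%, 12.8% and 13.7% in mutants, without correction for length. The genotypes did not overlap on this share, by a margin of 13.7% against 14.2%. Among single tested genes, 10.6% did not overlap either. pvalb4 had the same highest library as the slow myosins, with 1570 normalized counts in wild-type replicate 2 and 1253 in mutant replicate 1, whereas pvalb1 and pvalb2 were highest in mutant replicate 1.

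The 7 listed genes with an unadjusted p under 0.05 in limma were myhb, MYBPC1, MYBPC2, lmod3, MYOZ2 (ENSDARG00000037266), CACNA1S (ENSDARG00000042552) and ENO3. Several of them did not belong to the genes with the widest spans. myhb, a myosin heavy chain, was at 141, 193 and 106 normalized counts in wild type and at 392, 267 and 207 in mutants, 0.96 higher on the log2 scale (SE 0.30, limma adjusted p = 0.642). lmod3, whose product seeds actin filaments, was at 13.5, 14.8 and 10.1 in wild type and at 40.6, 51.3 and 19.6 in mutants. That was 1.38 higher on the log2 scale (SE 0.49, limma adjusted p = 0.726), on 10 to 50 reads per library. MYBPC1 and MYBPC2, myosin-binding proteins C, had log2 fold changes of 0.64 (SE 0.28) and 1.16 (SE 0.43). MYBPC2 rested on 16 to 84 reads per library.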
